A study of Homo sapiens with 6 samples.

Results

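Transcripts of the ATF4 stress response and of the cytosolic tRNA synthetases were followed in U2OS cells with reduced E2F7, as the cells left a hydroxyurea block. The set was given as 37 gene symbols: 7 genes of serine and asparagine synthesis, 10 stress regulators and 20 synthetases. Members were the rows of the deposited tables whose identifier equals one of these symbols and that were listed at every time, which left 36 of 37, or 36 of the 11886 genes listed at all 3 times. All 7 serine and asparagine genes, all 10 regulators and 19 of 20 synthetases were kept. VARS was not analysed here. U2OS is an established human osteosarcoma line. The siE2F7 arm was transfected with siRNA against E2F7, an atypical E2F factor that represses transcription of E2F target genes, and the siNT arm with control siRNA that has no intended target. Both arms were treated with 4 mM hydroxyurea for 24 h, which depletes deoxynucleotides and holds cells at the start of S phase, and were then washed and taken at 0 h (G1/S), 3 h (S phase) and 12 h (G2/M). Each arm had 1 library at each time, 6 in all, and no untreated or unsynchronised cells were among them.

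ATF4 is the main effector of the integrated stress response. Kinases that sense missing amino acids, unfolded protein, viral RNA or low haem phosphorylate the initiation factor eIF2, which slows most translation but favours translation of the ATF4 mRNA, so ATF4 protein can change without its transcript. ATF4 pairs with C/EBP proteins on composite elements and induces genes that make and import amino acids, tRNA synthetases and feedback regulators. Synthetases join each amino acid to its tRNA; in animals several of them sit in a multisynthetase complex held by scaffold proteins. Serine and asparagine are used in protein synthesis, and the carbon of serine also feeds nucleotide synthesis through the folate cycle.

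The letters of the composite element were looked up first, since ATF4 is known to bind it with its C/EBP partners. The element was searched as TGATGNAA on both strands, from 250 bases before to 50 after each start in the RefSeq promoter table (GRCh38.p14). Of the 37 members 31 had an entry, with 44 windows; PSPH, SHMT2, DARS, LARS, VARS and YARS had none. The element was in a window of 11 of the 31 members (35.5%), against 1217 of all 27305 genes in that table (4.46%). By role, it was in 1 of 5 serine and asparagine genes, 3 of 10 stress regulators and 7 of 16 synthetases. Synthetases that general knowledge names as ATF4-induced had it in 7 of 10, and the other synthetases in 0 of 6. That division was made with earlier results of these data known, and the difference was not tested. General knowledge of ATF4 targets may itself draw on such elements, so the division may not be independent of the letters. The same may hold for the set as a whole. The 11 stretches, 30 bases each, are printed on the strand on which the element reads as above, with the element in capitals.
ASNS, chr7:97872458-97872487, minus strand: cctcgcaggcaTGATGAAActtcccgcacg
ATF3, chr1:212565205-212565234, plus strand: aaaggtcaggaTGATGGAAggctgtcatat
CHAC1, chr15:40953251-40953280, minus strand: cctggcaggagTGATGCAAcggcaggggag
HERPUD1, chr16:56931955-56931984, minus strand: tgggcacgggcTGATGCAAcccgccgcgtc
AARS, chr16:70289675-70289704, plus strand: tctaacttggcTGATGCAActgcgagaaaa
CARS, chr11:3057407-3057436, plus strand: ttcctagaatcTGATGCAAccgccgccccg
GARS, chr7:30594834-30594863, minus strand: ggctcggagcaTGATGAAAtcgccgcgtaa
IARS, chr9:92293692-92293721, plus strand: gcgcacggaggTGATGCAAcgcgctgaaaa
MARS, chr12:57488053-57488082, minus strand: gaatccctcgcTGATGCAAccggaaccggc
NARS, chr18:57621804-57621833, minus strand: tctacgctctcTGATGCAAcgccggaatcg
TARS, chr5:33440956-33440985, minus strand: gctggaccagcTGATGCAAtcgaaaggcgc
Of these, 8 read TGATGCAA, 2 read TGATGAAA (ASNS and GARS) and 1 reads TGATGGAA (ATF3). Counted from the start as position 1, with the base before it as -1, the element lies at -68 to -61 in ASNS, on the strand of the gene. In AARS it lies at -187 to -180 and in CHAC1 at -209 to -202, both on the strand opposite to the gene. In ATF3, HERPUD1, GARS and IARS it also lies before the start. In CARS (-2 to 6) and MARS (-4 to 4) it spans the start, and in TARS (3 to 10) and NARS (15 to 22) it lies after the start. A match is a description of letters, and binding was not measured.

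The E2F letters TTCCCGC or TTGGCGC, on either strand, were in windows of 3 of the 31 members (ASNS, AARS and TARS; 9.68%), against 11% of all genes in the table. In ASNS they begin at -59, next to the composite element and without overlap. The 250 bases before the ASNS start (chr7:97872409-97872658, GRCh38.p14, minus strand) are shown since ASNS is the member with both upstream of 1 start, and both are in capitals.
ASNS upstream: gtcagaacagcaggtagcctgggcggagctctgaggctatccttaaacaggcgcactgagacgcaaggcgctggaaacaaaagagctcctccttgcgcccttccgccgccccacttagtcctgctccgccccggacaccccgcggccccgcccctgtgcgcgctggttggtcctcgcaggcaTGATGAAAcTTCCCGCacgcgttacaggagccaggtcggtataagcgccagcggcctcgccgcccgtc
The endoplasmic reticulum stress element, to which ATF6 binds, was searched on both strands as CCAAT and CCACG with 9 bases of any kind between them. It was in 1 of the 31 members, XBP1, on the strand of the gene at -52 to -34, against 0.0916% of all genes. The stretch is shown with the element in capitals, within which no composite or E2F letters fell.
XBP1, chr22:28800597-28800626, minus strand: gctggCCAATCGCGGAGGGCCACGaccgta

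Levels are in FPKM, which divides the fragments of a gene by its length and by library size, so levels of different genes can be set side by side. No counts are given and the depth behind a value is unknown. The 6 libraries had FPKM sums of 351305 to 375954 and medians of 10.07 to 10.61 FPKM. E2F7 stood at 9.48, 10.6 and 5.52 FPKM in siE2F7 cells at 0, 3 and 12 h, against 20.3, 29.4 and 16.6 FPKM in siNT cells, a log2 change of -1.37 ± 0.10 (SE; limma, adjusted p = 0.00102). Part of the E2F7 transcript was thus left in the knockdown. Of 8 osteoblast and mesenchymal markers 6 were listed at all times, without COL1A2 and TWIST1, while of 8 blood, endothelial and epithelial markers 1 was (EPCAM). Median log2 differences between 12 and 0 h were 1.88 in siE2F7 cells and 1.38 in siNT cells for 4 mitotic genes, and -1.29 and -1.45 for 4 G1/S genes. All 4 G1/S genes (CCNE1, CCNE2, CDC6 and MCM10) were also higher in siE2F7 cells by the test described below. Of the 6 osteoblast and mesenchymal markers 1 was lower, ALPL, with a log2 change of -0.37 ± 0.10 (SE; limma, adjusted p = 0.0430) that was lost when any 1 time was left out (adjusted p from 0.0693 to 0.135). The part of these shifts in the results that follow was not tested.

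The members were among the more abundant transcripts. Their values ran from 5.97 FPKM (DDIT3) to 462 FPKM (ATF4), none was listed at 0, and 34 of 36 had a mean above 11.2 FPKM, the median of all genes. ATF4 had the highest mean, 388 FPKM, followed by MTHFD2 at 283 FPKM and GARS at 171 FPKM. CHAC1 (10.7 FPKM) and DDIT3 (7.24 FPKM) were below the median gene. DDIT3 and MARS carry the same interval in the tables (hg19, chromosome 12, 57881736 to 57914300), EPRS shares one with IARS2 and BPNT1, YARS overlaps S100PBP and IARS overlaps small RNA entries. Reads of these may have been split, and the values are uncertain to that extent, as are those of PSPH and ATF4, which have pseudogene copies.

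**Figure D1:**
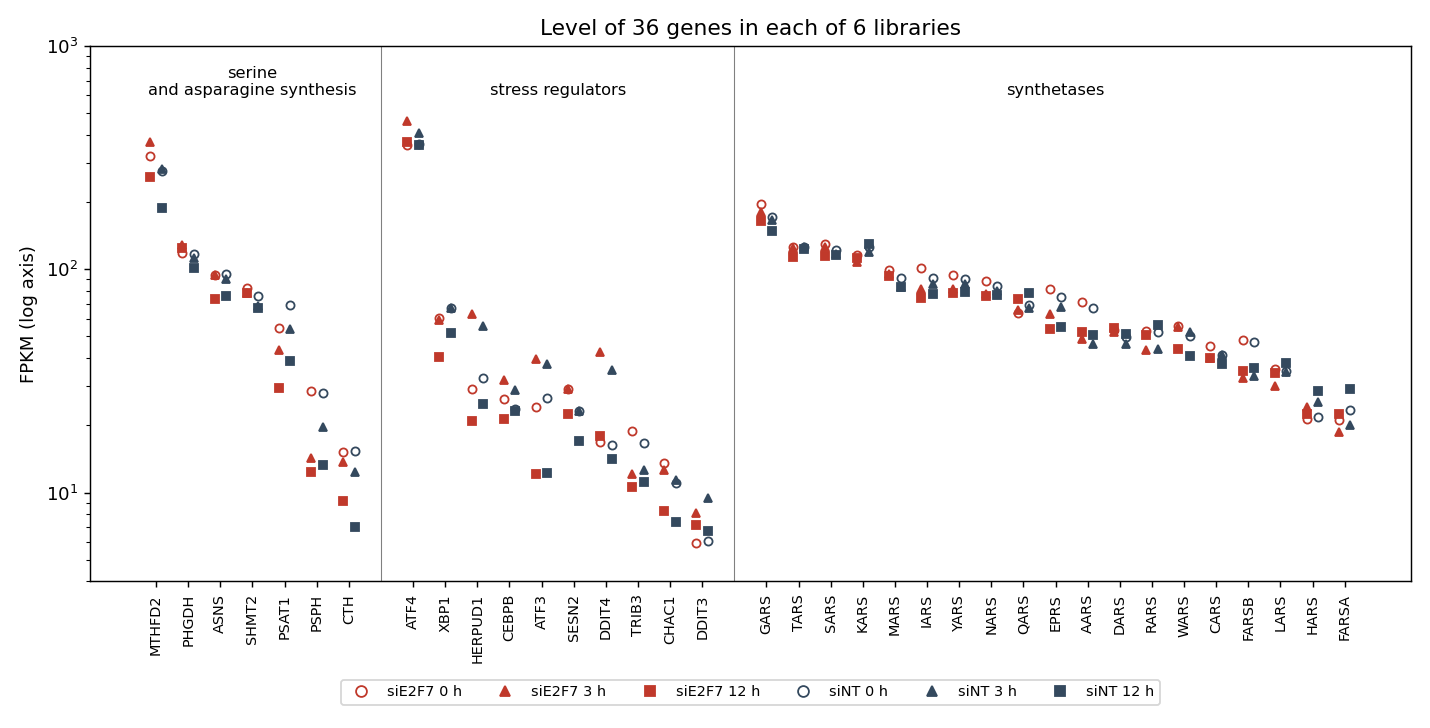
FPKM of the 36 members (log axis) in each of the 6 libraries, siE2F7 in red and siNT in dark blue, with open circles for 0 h, triangles for 3 h and squares for 12 h. Genes are ordered by mean level within each role, from ATF4 at 388 FPKM to DDIT3 at 7.24 FPKM among the regulators and from GARS at 171 FPKM to FARSA at 22.5 FPKM among the synthetases.

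The first question was whether E2F7 depletion altered these transcripts. It was tested across all genes with limma on the log2 of FPKM plus 0.1. Time was a block, so the 3 times served as the repeats of the arm contrast. The labels do not tell whether the libraries are from separate experiments. With 1 library per arm and time, the spread behind a p-value is that of the siE2F7 to siNT ratio between the 3 times. It is moderated by that of genes of like level, and it is not a spread between experiments. A ratio that differs between times adds to the SE, so a gene that changed at 1 time only can fail to pass. In bulk RNA, fewer cells of a kind and less RNA per cell cannot be told apart. Of the members, 2 of 36 (5.56%) were higher in siE2F7 cells, MTHFD2 and SESN2, where 6.76% of all genes were, and 1 of 36 (2.78%), PSAT1, was lower, where 7.13% of all genes were. The share of members called was thus no larger than the share of all genes in either direction. The median log2 change was 0.17 for serine and asparagine synthesis, 0.04 for the regulators, -0.01 for the synthetases and -0.03 for all genes. SEs of single members were between 0.06 and 0.10 on the log2 scale. Without the time block 0 members were called, and without the variance trend likewise 0. Of the 36 members, 18 had the same sign of the ratio at all 3 times. That count was not made over all genes, so it does not tell whether members differ from other genes.

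**Figure D2:**
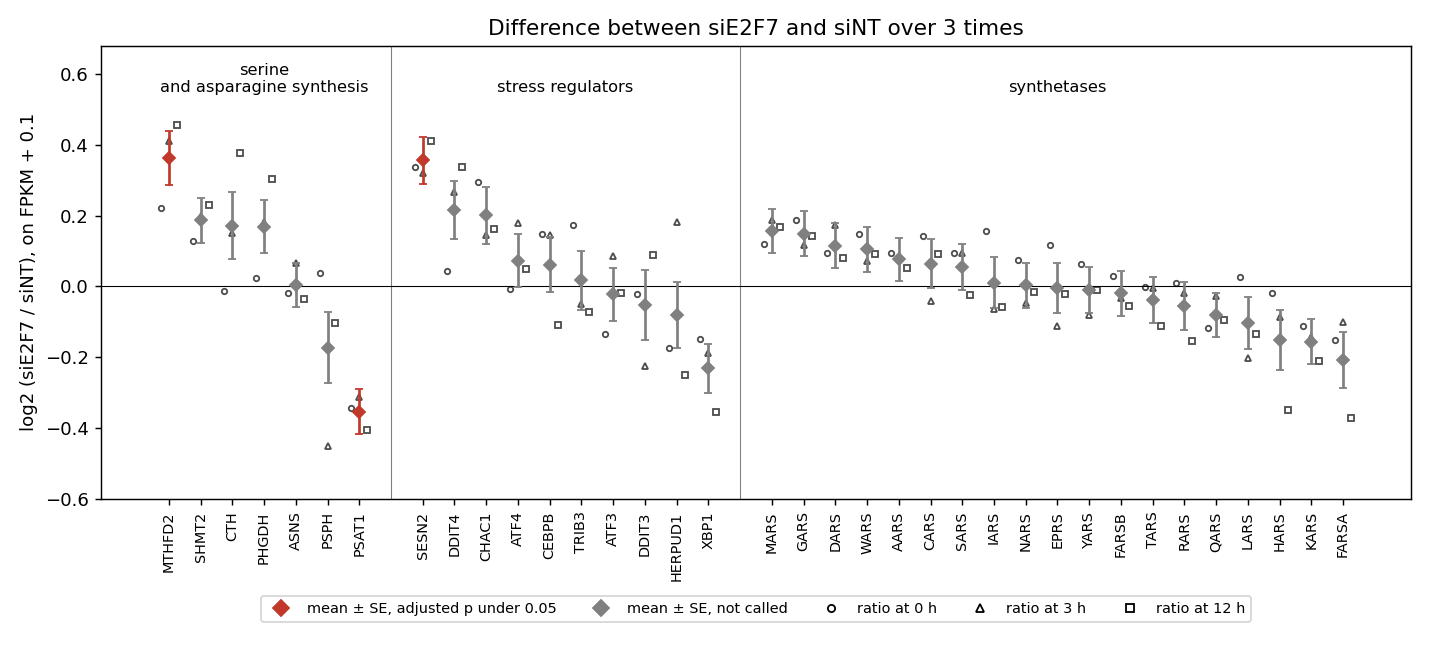
Log2 ratio of siE2F7 over siNT on FPKM + 0.1 for the 36 members, by role. Diamonds are the fitted change with its SE (red where the adjusted p is under 0.05), and open symbols are the ratios at 0, 3 and 12 h. MTHFD2 (0.36), SESN2 (0.36) and PSAT1 (-0.35) are the called members, and all 19 synthetases lie between -0.21 and 0.16.

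Among the enzymes of serine and asparagine synthesis 1 of 7 rose, 1 fell and 5 did not pass the test, too few to set against the 6.76% and 7.13% of all genes. PHGDH, PSAT1 and PSPH make serine in sequence from a glycolytic intermediate. PHGDH, the entry enzyme, stood at 119, 128 and 125 FPKM in siE2F7 cells at 0, 3 and 12 h, against 117, 113 and 101 FPKM in siNT cells, with a log2 change of 0.17 ± 0.07 (SE; limma, adjusted p = 0.176). The 3 siE2F7 values lie above the 3 siNT values, least so at 0 h, and the change did not pass. PSAT1, the transaminase of the second step (hg19, chromosome 9, 80912059 to 80945009), stood at 54.4, 43.3 and 29.3 FPKM in siE2F7 cells at 0, 3 and 12 h, against 69.2, 53.75 and 38.8 FPKM in siNT cells. It was lower in siE2F7 cells at each time, with log2 ratios of -0.34, -0.31 and -0.40 at 0, 3 and 12 h and a change of -0.35 ± 0.06 (SE; limma, adjusted p = 0.0128). The arms still overlap across times, because both were highest at 0 h and lowest at 12 h. The call held when any 1 time was left out and was lost without the variance trend (adjusted p = 0.056). PSPH, the phosphatase of the last step, stood at 28.55, 14.3 and 12.4 FPKM in siE2F7 cells at 0, 3 and 12 h, against 27.8, 19.6 and 13.3 FPKM in siNT cells, with a log2 change of -0.17 ± 0.10 (SE; limma, adjusted p = 0.300). Its ratio was near 0 at 0 h and lowest at 3 h, at 0.04, -0.45 and -0.10 on the log2 scale.

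SHMT2 and MTHFD2 pass the carbon of serine into the mitochondrial folate cycle. MTHFD2 (hg19, chromosome 2, 74425690 to 74442424) stood at 321, 372.5 and 259 FPKM in siE2F7 cells at 0, 3 and 12 h, against 275, 280.4 and 189 FPKM in siNT cells. The siE2F7 library was higher at every time, by log2 ratios of 0.22, 0.41 and 0.46, and the change was 0.36 ± 0.08 (SE; limma, adjusted p = 0.0220). That call was lost without the 12 h libraries (0.32, adjusted p = 0.152) and without the variance trend (adjusted p = 0.0689). SHMT2, which splits serine to glycine, stood at 82.7, 78.5 and 78.4 FPKM in siE2F7 cells at 0, 3 and 12 h, against 75.6, 68.3 and 66.8 FPKM in siNT cells. The 3 siE2F7 values lie above the 3 siNT values, with no overlap across times, yet the log2 change of 0.19 ± 0.06 (SE; limma, adjusted p = 0.0917) did not pass. CTH, which makes cysteine from cystathionine, stood at 15.3, 13.8 and 9.15 FPKM in siE2F7 cells at 0, 3 and 12 h, against 15.4, 12.4 and 7.03 FPKM in siNT cells, a log2 change of 0.17 ± 0.09 (SE; limma, adjusted p = 0.269). Its ratios on the log2 scale were -0.01, 0.15 and 0.38, so the arms parted at 12 h and not at 0 h. ASNS, asparagine synthetase, whose upstream bases are printed above, stood at 93.9, 94.2 and 73.9 FPKM in siE2F7 cells at 0, 3 and 12 h, against 95.1, 89.98 and 75.7 FPKM in siNT cells. The arms overlapped, and the log2 change was 0.00 ± 0.06 (SE; limma, adjusted p = 0.973).

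The serine and asparagine genes were mostly lower at 12 h than before in both arms. The times are set side by side without a test, as there is 1 library per arm and time and it is not known whether the times were scaled together. The differences share libraries and are not independent of each other. PSPH, PSAT1 and CTH were at least 1.5-fold lower at 12 h than at 0 h in both arms, and with ATF3 these were the 4 of 36 members past that size, where 5.01% of all genes were. As a fold of the 0 h level, PSPH at 12 h was 0.435 in siE2F7 cells and 0.479 in siNT cells, PSAT1 0.5395 in siE2F7 cells and 0.562 in siNT cells, and CTH 0.602 in siE2F7 cells and 0.460 in siNT cells. At any size, 6 of 7 were lower at 12 h than at 0 h in both arms, where 42.6% of all genes were, and the exception, PHGDH, had log2 differences of 0.07 in siE2F7 cells and -0.21 in siNT cells. All 7 were lower at 12 h than at 3 h in both arms, where 34.8% of all genes were, with SHMT2 barely so, at folds of the 3 h level of 0.999 in siE2F7 cells and 0.978 in siNT cells. The group's median log2 difference between 12 and 0 h was -0.35 in siE2F7 cells and -0.54 in siNT cells, beside -0.05 and -0.03 for all genes. At 3 h against 0 h, 4 of 7 were lower in both arms, where 46.6% of all genes were, and MTHFD2 was higher in both. No member was 1.5-fold higher at 12 h than at 0 h in both arms (2.89% of all genes) or at 12 h than at 3 h (3.40%).

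Among the stress regulators 1 of 10 rose in siE2F7 cells, none fell and 9 did not pass, where 6.76% of all genes rose and 7.13% fell. ATF4 itself (hg19, chromosome 22, 39916569 to 39918691) stood at 360.4, 462 and 372 FPKM in siE2F7 cells at 0, 3 and 12 h, against 362, 408.5 and 359 FPKM in siNT cells, with a log2 change of 0.07 ± 0.07 (SE; limma, adjusted p = 0.553). In both arms its highest library was that of 3 h, and the arms overlapped. Of its partner and target factors, CEBPB, the C/EBP protein with which ATF4 can pair, had a log2 change of 0.06 ± 0.08 (SE; limma, adjusted p = 0.645). ATF3, a repressor that ATF4 induces, stood at 24.1, 39.8 and 12.05 FPKM in siE2F7 cells at 0, 3 and 12 h, against 26.5, 37.5 and 12.2 FPKM in siNT cells, a log2 change of -0.02 ± 0.07 (SE; limma, adjusted p = 0.863). Its values differed far more between times than between arms. DDIT3, which encodes the CHOP factor of prolonged stress, stood at 5.97, 8.07 and 7.17 FPKM in siE2F7 cells at 0, 3 and 12 h, against 6.06, 9.45 and 6.73 FPKM in siNT cells, a log2 change of -0.05 ± 0.10 (SE; limma, adjusted p = 0.763), and was lowest at 0 h in both arms.

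The called regulator was SESN2, which restrains mTORC1 when leucine is missing and is a target of both p53 and ATF4 (hg19, chromosome 1, 28585963 to 28609002). It stood at 29.2, 29.04 and 22.6 FPKM in siE2F7 cells at 0, 3 and 12 h, against 23.1, 23.2 and 16.95 FPKM in siNT cells. Each siE2F7 library was above the siNT library of its time, by log2 ratios of 0.34, 0.32 and 0.41, while the arms overlapped across times. The log2 change was 0.36 ± 0.07 (SE; limma, adjusted p = 0.0156), and the call was lost without the 3 h libraries (0.37, adjusted p = 0.0672) and without the variance trend (adjusted p = 0.0553). DDIT4, another inhibitor of mTORC1 that responds to stress and low oxygen, stood at 16.8, 42.5 and 17.85 FPKM in siE2F7 cells at 0, 3 and 12 h, against 16.3, 35.2 and 14.1 FPKM in siNT cells, with a log2 change of 0.22 ± 0.08 (SE; limma, adjusted p = 0.119). The siE2F7 library was higher at each time, by the least at 0 h. TRIB3, a pseudokinase that feeds back on ATF4, had a log2 change of 0.02 ± 0.08 (SE; limma, adjusted p = 0.912), and CHAC1, which degrades glutathione, one of 0.20 ± 0.08 (SE; limma, adjusted p = 0.141).

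XBP1 and HERPUD1 belong to the unfolded protein response of the endoplasmic reticulum. XBP1, whose mRNA is spliced on ER stress to encode an active factor, stood at 60.3, 58.99 and 40.5 FPKM in siE2F7 cells at 0, 3 and 12 h, against 66.8, 67.3 and 51.8 FPKM in siNT cells. It was lower in siE2F7 cells at each time, with log2 ratios of -0.15, -0.19 and -0.36, and the change of -0.23 ± 0.07 (SE; limma, adjusted p = 0.0676) did not pass; after quantile normalization it did (-0.25, adjusted p = 0.0442). Spliced and unspliced XBP1 cannot be told apart in these tables. HERPUD1, which helps clear misfolded ER proteins, stood at 28.99, 62.97 and 20.8 FPKM in siE2F7 cells at 0, 3 and 12 h, against 32.7, 55.5 and 24.8 FPKM in siNT cells, a log2 change of -0.08 ± 0.09 (SE; limma, adjusted p = 0.606), and its ratio was above 0 at 3 h and below 0 at 0 and 12 h.

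The widest time differences of the whole set were those of regulators. DDIT4 and HERPUD1 were at least 1.5-fold higher at 3 h than at 0 h in both arms, the 2 of 36 members past that size, where 3.05% of all genes were. As a fold of the 0 h level, DDIT4 at 3 h was 2.52 in siE2F7 cells and 2.155 in siNT cells, and HERPUD1 2.17 in siE2F7 cells and 1.69 in siNT cells. ATF3 passed that size at 3 h in siE2F7 cells alone (1.65 against 1.41 in siNT cells) and DDIT3 in siNT cells alone (1.345 in siE2F7 cells against 1.55), and these differences between arms were not tested. None of the 36 was 1.5-fold lower at 3 h than at 0 h in both arms, where 2.90% of all genes were. At any size, 6 of 10 regulators were higher at 3 h in both arms, where 28.1% of all genes were, and 1 of 10, TRIB3, was lower, where 46.6% of all genes were. With libraries centred on their median the regulators higher at 3 h in both arms were 8 of 10, with SESN2 and XBP1 added. Of all 11886 genes 4009 were then higher in both arms, against 3339 without centring. The uncentred log2 differences of the added genes were small, at -0.01 in siE2F7 cells and 0.01 in siNT cells for SESN2. For XBP1 they were -0.03 in siE2F7 cells and 0.01 in siNT cells.

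All 10 regulators were lower at 12 h than at 3 h in both arms, against the 34.8% of all genes given above. ATF3, HERPUD1, DDIT4 and CHAC1 were at least 1.5-fold lower at 12 h than at 3 h in both arms, 4 of 36 members, where 4.09% of all genes were. As a fold of the 3 h level, ATF3 at 12 h was 0.304 in siE2F7 cells and 0.328 in siNT cells, HERPUD1 0.332 in siE2F7 cells and 0.448 in siNT cells, and DDIT4 0.422 in siE2F7 cells and 0.402 in siNT cells. CHAC1 was the member closest to that limit from inside, at 0.6565 in siE2F7 cells and 0.650 in siNT cells, and with a pseudocount of 1 it was no longer past it. Against 0 h, 7 of 10 were lower at 12 h in both arms, where 42.6% of all genes were. The exceptions were ATF4 and DDIT4, whose arms differed in sign, and DDIT3, which was higher at 12 h than at 0 h in both. CHAC1 stood at 13.6, 12.6 and 8.26 FPKM in siE2F7 cells at 0, 3 and 12 h, against 11.1, 11.4 and 7.37 FPKM in siNT cells. TRIB3 and CHAC1 just missed 1.5-fold from 0 to 12 h, with folds of the 0 h level of 0.565 in siE2F7 cells and 0.671 in siNT cells for TRIB3 and 0.610 in siE2F7 cells and 0.670 in siNT cells for CHAC1.

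**Figure D3:**
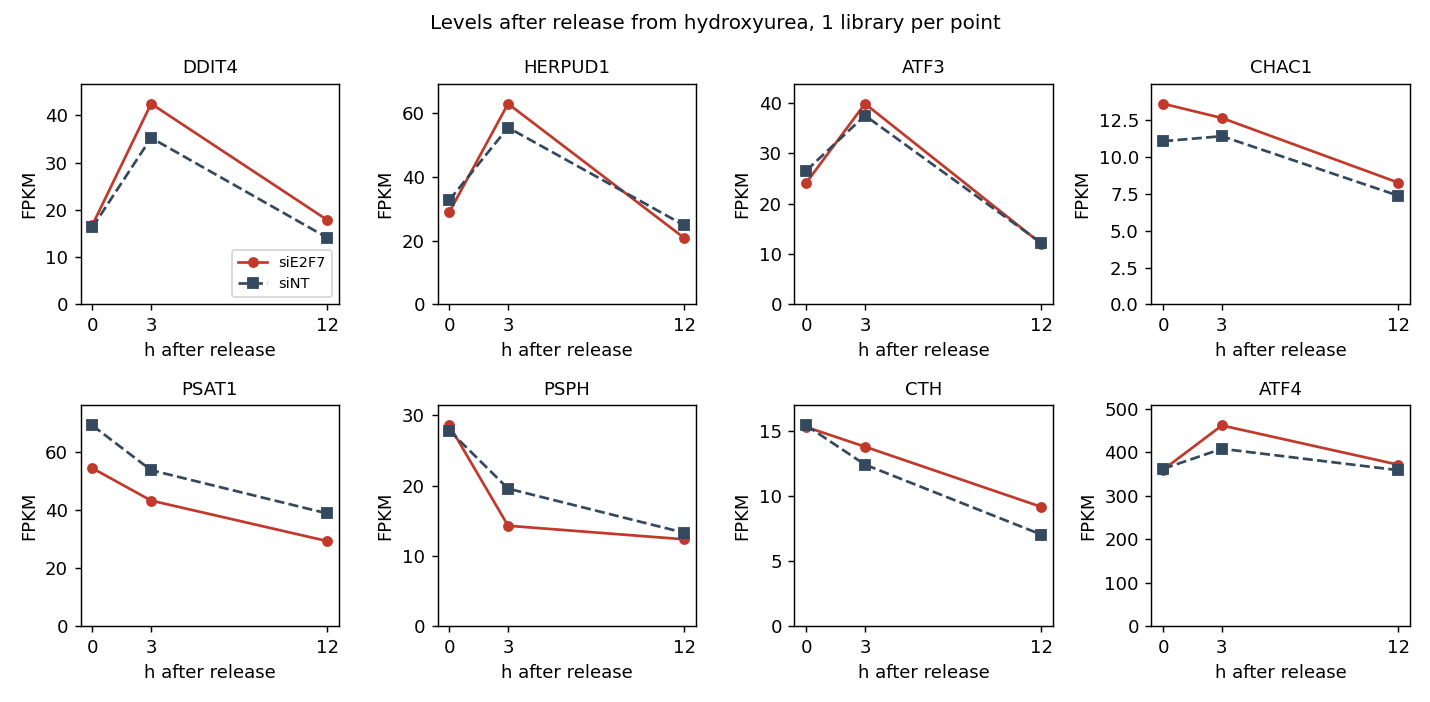
FPKM against hours after release for 8 members, siE2F7 as red circles and siNT as dark blue squares, 1 library per point and axes from 0. DDIT4, HERPUD1 and ATF3 are highest at 3 h in both arms, PSAT1, PSPH and CTH are lowest at 12 h in both, and ATF4 stays between 359 and 462 FPKM.

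None of the 19 synthetases passed the test in either direction (limma, Benjamini-Hochberg), where 6.76% of all genes rose and 7.13% fell. An unadjusted limma p under 0.05 was found for 3 of 19, FARSA and KARS with lower and MARS with higher values in siE2F7 cells. Genes that pass the adjusted test also pass this looser limit, so at least 6.76% of all genes rose by it and 7.13% fell. The full share of all genes was not counted, so these 3 do not tell whether synthetases differ from other genes. Log2 changes of the 19 ran from -0.21 (FARSA, the catalytic chain of the phenylalanine enzyme) to 0.16 (MARS, the methionine enzyme), and the smallest adjusted p was 0.124. FARSA stood at 21.1, 18.7 and 22.45 FPKM in siE2F7 cells at 0, 3 and 12 h, against 23.5, 20.05 and 29.1 FPKM in siNT cells, with its lowest ratio at 12 h (-0.37 on the log2 scale). KARS, the lysine enzyme, had all 3 siE2F7 values below its 3 siNT values and a log2 change of -0.16 ± 0.06 (SE; limma, adjusted p = 0.148). GARS, the glycine enzyme and the most abundant of them, stood at 195, 181 and 164 FPKM in siE2F7 cells at 0, 3 and 12 h, against 171, 167 and 148.5 FPKM in siNT cells, a log2 change of 0.15 ± 0.06 (SE; limma, adjusted p = 0.166). HARS, the histidine enzyme, stood at 21.5, 24.1 and 22.4 FPKM in siE2F7 cells at 0, 3 and 12 h, against 21.75, 25.5 and 28.6 FPKM in siNT cells, and its arms were close at 0 h and apart at 12 h. Among all synthetases and times the widest single ratio was 0.37 on the log2 scale in size.

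The remaining changes are given on the log2 scale with their SE. Those for alanine (AARS, 0.08 ± 0.06), cysteine (CARS, 0.06 ± 0.07), aspartate (DARS, 0.12 ± 0.06), serine (SARS, 0.06 ± 0.07) and tryptophan (WARS, 0.10 ± 0.06) were above 0. Those for isoleucine (IARS, 0.01 ± 0.07), asparagine (NARS, 0.00 ± 0.06), glutamate and proline (EPRS, -0.01 ± 0.07), tyrosine (YARS, -0.01 ± 0.06) and the second chain of the phenylalanine enzyme (FARSB, -0.02 ± 0.06) were within 0.02 of 0. Those for threonine (TARS, -0.04 ± 0.06), arginine (RARS, -0.05 ± 0.07), glutamine (QARS, -0.08 ± 0.06), leucine (LARS, -0.10 ± 0.07) and histidine (HARS, -0.15 ± 0.08) were below 0. The 2 chains of the phenylalanine enzyme, FARSA and FARSB, thus had unequal values, and that difference was not tested.

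Between times, no synthetase was past 1.5-fold in both arms. From 0 to 3 h 15 of 19 were lower in both arms and 1 of 19 was higher (HARS), beside the 46.6% and 28.1% of all genes given above. With libraries centred on their median, 11 of 19 were lower and 4 of 19 higher (HARS, QARS, TARS and WARS), so this count rests in part on the scaling. By the mean of both arms, EPRS, AARS and FARSB were furthest below their 0 h level at 12 h. The log2 difference of EPRS was -0.60 in siE2F7 cells and -0.46 in siNT cells. That of AARS was -0.45 in siE2F7 cells and -0.40 in siNT cells, and that of FARSB -0.46 in siE2F7 cells and -0.38 in siNT cells. EPRS stood at 81.9, 62.9 and 54.1 FPKM in siE2F7 cells at 0, 3 and 12 h, against 75.5, 67.9 and 54.95 FPKM in siNT cells. AARS stood at 71.5, 48.9 and 52.45 FPKM in siE2F7 cells at 0, 3 and 12 h, against 66.96, 46.1 and 50.6 FPKM in siNT cells. In both genes the 0 h library was the highest of its arm, and AARS was lowest at 3 h while EPRS was lowest at 12 h.

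The synthetases were also divided into those known as ATF4-induced and the others. The first group is AARS, CARS, EPRS, GARS, IARS, LARS, MARS, NARS, SARS, TARS, WARS and YARS, named from general knowledge of the response, with earlier results of these data known. Of these 11 of 12 were lower at 12 h than at 0 h in both arms, where 42.6% of all genes were, with LARS the exception at -0.06 in siE2F7 cells and 0.11 in siNT cells. Of the other 7, 1 was lower (FARSB) and 4 were higher in both arms (DARS, FARSA, HARS and QARS), where 33.1% of all genes were. KARS and RARS differed in sign between arms. Median log2 differences were -0.23 in siE2F7 cells and -0.16 in siNT cells for the ATF4-induced group, and 0.03 and 0.11 for the others. Between 3 and 12 h 9 of 12 of the first group were lower in both arms and 2 of 12 were higher, while of the others 0 of 7 were lower and 6 of 7 were higher, where 39.3% of all genes were higher. QARS, the glutamine enzyme, for example stood at 63.98, 65.7 and 73.4 FPKM in siE2F7 cells at 0, 3 and 12 h, against 69.4, 66.9 and 78.4 FPKM in siNT cells. The counts from 0 to 12 h and from 3 to 12 h were the same with libraries centred on their median. The groups overlap, with FARSB among the lowest and LARS among the others, and the difference between them was not tested.

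Several synthetases belong to the multisynthetase complex. Of its 8 measured enzymes 3 were lower at 12 h than at 0 h in both arms, and of the 11 outside it 9 were, where 42.6% of all genes were. The count for the complex is near that share. The composite letters were in windows of 2 of 6 complex enzymes with an entry and in 5 of 10 outside it.

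**Figure D4:**
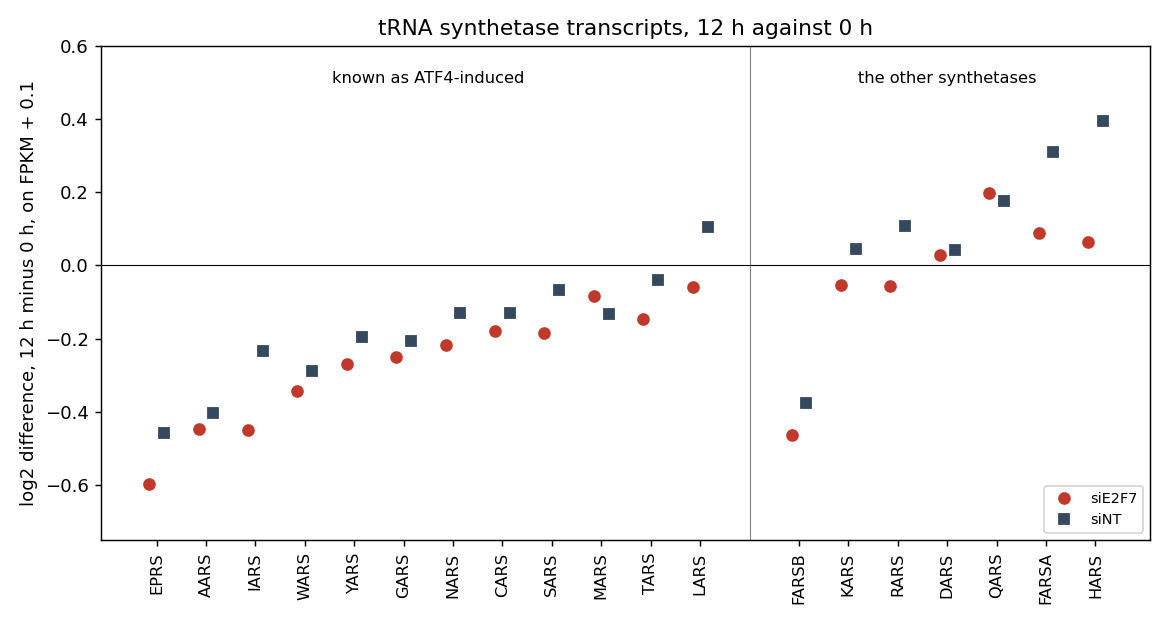
Log2 difference between 12 h and 0 h on FPKM + 0.1 for the 19 synthetases, siE2F7 as red circles and siNT as dark blue squares, 1 library per time and arm. In the group known as ATF4-induced 11 of 12 genes are below 0 in both arms, from EPRS upward, and in the other group FARSB alone is.

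Genes upstream of and beside the members were taken from lists of the pathway. Of 14 genes for the eIF2 kinases and the eIF2 machinery, 3 fell and 0 rose in siE2F7 cells, beside the 7.13% and 6.76% of all genes. EIF2AK4, the kinase GCN2 that senses uncharged tRNA, stood at 14.5, 10.5 and 13.1 FPKM in siE2F7 cells at 0, 3 and 12 h, against 16.98, 14.2 and 18.8 FPKM in siNT cells, a log2 change of -0.39 ± 0.08 (SE; limma, adjusted p = 0.0247). EIF2B5 and EIF2B3, subunits of the exchange factor that recharges eIF2, changed by -0.39 ± 0.07 (SE; limma, adjusted p = 0.0112) and -0.36 ± 0.08 (SE; limma, adjusted p = 0.0269) on the log2 scale. EIF2AK4 lost its call without 3 h (adjusted p = 0.105) or without 12 h (0.0739), and EIF2B3 likewise (0.121 and 0.0798). EIF2AK3, the kinase PERK of ER stress, had a log2 change of 0.05 ± 0.08 (SE; limma, adjusted p = 0.733). Of 3 scaffolds of the multisynthetase complex 1 fell, AIMP1, and 3 genes are too few to set against the 7.13% of all genes. AIMP1 stood at 28.8, 24.8 and 27.8 FPKM in siE2F7 cells at 0, 3 and 12 h, against 36.6, 31.4 and 38.02 FPKM in siNT cells. Its arms did not overlap, and the log2 change was -0.38 ± 0.07 (SE; limma, adjusted p = 0.0117). That call was lost without 3 h (adjusted p = 0.0502). AIMP1 shares its interval with TBCK. Of 16 mitochondrial synthetases measured 1 fell (6.25%), near the 7.13% of all genes. This was TARS2, with a log2 change of -0.36 ± 0.08 (SE; limma, adjusted p = 0.0303). The call of TARS2 was lost when any 1 time was left out (adjusted p from 0.0797 to 0.115).

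Of 26 other ATF4 targets measured 3 rose and 2 fell, 11.5% and 7.69%, beside 6.76% and 7.13% of all genes. SLC7A5, the light chain of the main leucine importer, stood at 83.1, 144 and 72.3 FPKM in siE2F7 cells at 0, 3 and 12 h, against 131, 230.2 and 157 FPKM in siNT cells, and each siE2F7 library was below the siNT library of its time. Its log2 change was -0.81 ± 0.10 (SE; limma, adjusted p = 0.00359). GDF15, a secreted stress cytokine that p53 also induces, stood at 2.52, 2.21 and 2.24 FPKM in siE2F7 cells at 0, 3 and 12 h, against 7.44, 4.36 and 3.76 FPKM in siNT cells, with no overlap of the arms and a log2 change of -1.07 ± 0.17 (SE; limma, adjusted p = 0.00935). SLC7A1, an importer of arginine and lysine, rose on the log2 scale by 0.38 ± 0.08 (SE; limma, adjusted p = 0.0202), CEBPG, a C/EBP partner of ATF4, by 0.32 ± 0.07 (SE; limma, adjusted p = 0.0232), and the lipoprotein receptor VLDLR, whose interval overlaps another entry, by 0.86 ± 0.12 (SE; limma, adjusted p = 0.00478). SLC7A1 lost its call without 0 h (adjusted p = 0.0799), and CEBPG without 0 h (0.0919) or 3 h (0.0921). SLC7A11, the cystine importer, had a log2 change of 0.05 ± 0.08 (SE; limma, adjusted p = 0.723). Between times, 21 of 26 were lower at 12 h than at 0 h in both arms, and 9 of them by 1.5-fold, where 42.6% and 5.01% of all genes were. By the mean of both arms the furthest were DDR2, a collagen receptor, SLC1A4, a transporter of neutral amino acids, JDP2, a bZIP repressor, and NUPR1, a stress protein. As a fold of the 0 h level, DDR2 at 12 h was 0.488 in siE2F7 cells and 0.433 in siNT cells, and SLC1A4 0.468 in siE2F7 cells and 0.453 in siNT cells.

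Of 11 other genes of serine and folate metabolism reported, 2 rose (18.2%) and 0 fell, beside 6.76% and 7.13% of all genes. TYMS, which makes thymidylate and is a known E2F target, stood at 192, 201 and 211 FPKM in siE2F7 cells at 0, 3 and 12 h, against 157, 124 and 94.2 FPKM in siNT cells. The arms did not overlap, and the gap between them was widest at 12 h. Its log2 change was 0.71 ± 0.15 (SE; limma, adjusted p = 0.0201), and its interval overlaps other entries in the tables. MTHFD1, the cytosolic counterpart of the MTHFD2 pathway, rose on the log2 scale by 0.39 ± 0.07 (SE; limma, adjusted p = 0.0122). TYMS lost its call without 3 h (adjusted p = 0.0656) and MTHFD1 without 12 h (adjusted p = 0.0693).

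Of 19 genes of the ER unfolded protein response measured, 1 rose (5.26%) and 2 fell (10.5%), near the 6.76% and 7.13% of all genes. HYOU1, a chaperone of the ER lumen, stood at 26.6, 28.02 and 18.2 FPKM in siE2F7 cells at 0, 3 and 12 h, against 49.8, 53.5 and 45.9 FPKM in siNT cells. The arms did not overlap, and the log2 change was -1.06 ± 0.10 (SE; limma, adjusted p = 0.00142). EDEM1, which sends misfolded glycoproteins to degradation, stood at 17.25, 18.4 and 11.2 FPKM in siE2F7 cells at 0, 3 and 12 h, against 27.8, 32.95 and 26.1 FPKM in siNT cells, again without overlap, with a log2 change of -0.91 ± 0.10 (SE; limma, adjusted p = 0.00292). PDIA4, a disulfide isomerase, rose on the log2 scale by 0.44 ± 0.08 (SE; limma, adjusted p = 0.0145), a call lost without 3 h (adjusted p = 0.0773). HSPA5, the chaperone BiP and the usual marker of this response, had a log2 change of -0.13 ± 0.07 (SE; limma, adjusted p = 0.233). At any size 16 of 19 were lower at 12 h than at 0 h in both arms, where 42.6% of all genes were. Of the genes called in these lists, AIMP1, TARS2, EIF2AK4, EIF2B3, SLC7A1, CEBPG, MTHFD1, TYMS and PDIA4 lost their calls without the variance trend (adjusted p from 0.0506 to 0.081), and none was called without the time block.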

How the data were processed

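RNA of 6 libraries, 1 for each arm and time, had been sequenced after TRIzol extraction and an Illumina TruSeq RNA kit, per the labels' protocols. The values are FPKM per gene as deposited by the authors, in a column layout like that of a Cuffdiff table. CASAVA 1.8 and hg19 (GRCh37) appear in the submitters' processing notes. Which aligner, gene annotation or filter was used is not given in the sources used here.

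The tables list 13161 genes in all, and the 11886 present at every time were tested. Each time had listed its own genes (12799, 12475 and 12299 at 0, 3 and 12 h), and no source tells if 1 scaling covered all times. The arm was tested with limma 3.58.1 (R 4.3.3) on log2(FPKM + 0.1). The model held time as a block, a variance trend and Benjamini-Hochberg adjustment over all 11886 genes at 0.05. The fit had 2 residual and 5.41 prior degrees of freedom and was first tried on simulated data. There 22 of 206 calls were false, and 82.1% of the genes given a 1.5-fold change were recovered. Smaller changes, such as those of the called members, were not simulated. The log2(FPKM + 0.1) scale understates changes of low genes, and a gene's SE borrows from genes of like level. With no counts, counting error could not be given. Times were compared 1 library against 1 in each arm, by a 1.5-fold difference or by sign, with no test.

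The members and the lists were chosen with earlier results of these data known. Values in every library are printed for called members, for members past 1.5-fold between times in both arms, and for ATF4, ATF3, DDIT3, ASNS, PSAT1 and PHGDH; SHMT2, XBP1 and those of the synthetases shown in full were added after their values were seen, as were EIF2AK3, HSPA5 and SLC7A11, which were named for their roles. Genes called in the other lists are named. A gene of the list of other serine and folate genes is withheld, left out of the counts of that list and not reported here. Promoter windows are RefSeq's (GRCh38.p14) and were matched by symbol or listed synonym; table coordinates are hg19 and counted from 1, and the builds were not mixed. Alternatives were another pseudocount, median centring, quantile normalization, a filter at 1 FPKM, no variance trend, no time block, each time left out, and, between times, folds of 2 and midway between 1 and 1.5.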

Additional observations from a re-analysis of the deposited data

How the results depend on the processing

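Over all genes, 400 were higher and 452 lower in siE2F7 cells without the variance trend, and 15 and 17 without the time block, against 803 and 847. Leaving out 1 time gave from 332 to 557 higher and from 431 to 560 lower, the fewest without 3 h. Of the members, 0 were higher and 0 lower without the trend, and again 0 and 0 without the block. Leaving out 1 time gave 1 to 2 members higher, with SESN2 lost without 3 h and MTHFD2 without 12 h, and 1 lower throughout. Quantile normalization gave 2 lower, with XBP1 added to PSAT1. With no test behind them, counts between times moved with the fold asked for. The share of all genes is in brackets behind each count. Higher at 3 h than at 0 h were 1 member at 2-fold (1.03%) and 4 at a fold midway between 1 and 1.5 (8.27%). Lower were 5 at that midway fold (12.3%), which is near the share of all genes. Lower at 12 h than at 0 h were 1 at 2-fold (0.9%) and 13 at the midway fold (13.8%). Lower at 12 h than at 3 h were 11 at the midway fold (11.1%). A pseudocount of 1 took CHAC1 out of the members lower at 12 h than at 3 h, which left 3 (2.95%). Counts by sign cannot move with the pseudocount, so it is no check on them. Those between 12 h and the earlier times were the same for the 3 roles under median centring, except that ATF4 joined DDIT3 as higher at 12 h than at 0 h. Between 3 and 0 h centring gave 11 synthetases lower and 4 higher, against 15 and 1, while the genes lower in all were 4654, against 5540. Medians of the 3 roles moved by less than the SD of their 3 per-time medians under each alternative run for them, and no called member changed sign. Where 1 time was left out, that SD comes from the same times, so it is a loose limit there. The values with the time block are paired, as siE2F7 and siNT are compared within each time, and those without it are not. Without counts, the depth of the libraries sets a limit that is unknown.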
